A study of Rattus norvegicus with 15 samples.

Results

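The genes described here encode chaperones, which help other proteins fold, and the unfolded protein response that regulates them, in the posterior cerebral artery of the rat. They were chosen by name, from a list of 37 genes. Of these, 34 had a probe set assigned to that gene alone, out of 10360 genes measured in this way in the series, and all 34 passed the filter on low signal (a signal of at least 100 on at least 3 arrays). By site and role, 17 belong to the endoplasmic reticulum (15 chaperones and folding enzymes and 2 genes of endoplasmic reticulum-associated degradation), 13 to the cytosol or the mitochondria, and 4 are regulators of the unfolded protein response. Where a gene had several probe sets, the brightest over all 15 arrays was used. Hspa1b, Hspa8 and Hsp90aa1 lay only on probe sets shared with another gene and are given separately.

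Secreted and membrane proteins, among them the collagens and receptors of an artery wall, fold in the endoplasmic reticulum with the help of Hspa5 (BiP), Hsp90b1 (GRP94), the lectin chaperones Calr and Canx, and the protein disulfide isomerases. When unfolded proteins accumulate there, sensors in the membrane of the organelle act through the transcription factors Xbp1, Atf4 and Atf6 to raise transcription of these chaperones. Ddit3 (CHOP) and Trib3 are induced downstream of Atf4. In the cytosol a separate programme, the heat shock response, acts through Hsf1 on the HSP70, HSP90 and small heat shock protein genes.

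Each of the 15 arrays carried RNA pooled from the posterior cerebral arteries, on the operated side, of 8 Sprague Dawley rats aged 7 weeks. The intact group had no operation. In the 3VO (3-vessel occlusion) groups both vertebral arteries were electrocoagulated and the left common carotid artery was tied, a model of lowered brain perfusion without ischaemia in which the posterior cerebral artery carries collateral flow. In the sham groups the vessels were exposed without being occluded. The 3VO and sham groups were taken 24 h and 3 d after surgery, and each of the 5 groups had 3 arrays. All vessels were filled with latex under papaverine, a vasodilator, before they were dissected. The labels do not settle whether the 3 arrays of a group came from separate pools of animals, so the p-values measure the spread between these arrays. For replicate 1 of the sham 3 d group the title says sham, but the text on treatment describes the occlusion. It was kept as sham, and all fits were also run without it.

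Known binding motifs of both programmes were searched in the promoters, here the 250 bases before and the 50 bases after each start site, from RefSeq on the GRCr8 build. Promoters were found for 31 of the 37 listed genes. The matches to the endoplasmic reticulum stress response element and the heat shock element are shown because these are the elements that the factors of the 2 stress programmes are known to bind. The endoplasmic reticulum stress response element was searched as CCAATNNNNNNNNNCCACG on both strands. It was present in 6 of 14 promoters of endoplasmic reticulum members, in 1 of 4 of the regulators and in 0 of 13 of the cytosolic and mitochondrial genes listed, against 22 of all 33469 promoters (0.0657%). In the lines below, which give a selection, the element is in capitals, and each line is read 5′ to 3′ on the strand that holds it.
Hspa5 (chr3:38452963-38453001, plus strand): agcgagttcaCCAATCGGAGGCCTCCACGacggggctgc
Hsp90b1, distal (chr7:23012441-23012479, minus strand): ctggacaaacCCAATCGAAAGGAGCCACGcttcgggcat
Hsp90b1, proximal (chr7:23012337-23012375, plus strand): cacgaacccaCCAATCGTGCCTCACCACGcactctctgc
Calr (chr19:40213125-40213163, minus strand): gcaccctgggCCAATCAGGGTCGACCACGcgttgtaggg
Creld2 (chr7:121789229-121789267, minus strand): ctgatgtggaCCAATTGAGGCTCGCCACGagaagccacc
Dnajc3 (chr15:102432524-102432562, plus strand): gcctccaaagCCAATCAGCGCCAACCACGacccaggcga
Xbp1 (chr14:84604548-84604586, plus strand): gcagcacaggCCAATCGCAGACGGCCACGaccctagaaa
Hsp90b1, alone among the genes shown, held the element at 2 places. Among the copies shown, that in the Hspa5 promoter lay closest to its start site, from base -43 to base -25.

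The heat shock element was searched as GAANNTTCNNGAA, which on the other strand reads TTCNNGAANNTTC. It was present in 0 of 14 endoplasmic reticulum promoters and in 5 of 13 cytosolic and mitochondrial ones (Hsph1, Dnaja1, Hspa8, Hspd1 and Hspe1), against 267 of all 33469 promoters (0.798%). Hspd1 and Hspe1 are neighbours read in opposite directions, and their promoters share the same bases and the same overlapping pair of elements. One of that pair is shown for Hspe1, with the element in capitals.
Hsph1 (chr12:10427322-10427354, minus strand): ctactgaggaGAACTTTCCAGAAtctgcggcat
Dnaja1 (chr5:60638403-60638435, plus strand): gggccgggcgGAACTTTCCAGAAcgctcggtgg
Hspe1 (chr9:64084252-64084284, minus strand): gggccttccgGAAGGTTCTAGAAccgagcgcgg
Further motifs were rarer among the members. TGACGTGG, the unfolded protein response element, which can overlap the end of the stress response element, was found in the promoters of Hyou1 and Bag3, against 199 of all promoters (0.595%). TGATGNAA, the core of the amino acid response element bound by Atf4, was found in those of Herpud1, Trib3 and Hspa9, against 1332 of all promoters (3.98%). A match describes letters in these windows and not binding in the artery.

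Signals are the authors' linear array intensities, scaled per array, and differences are on the scale of log2(signal + 16). The median signal per array ran from 2553 to 2938. The tissue expressed the artery markers on every array, with a summed signal of 6 smooth muscle genes between 213618 and 481630.0 and of 5 endothelial genes between 24157 and 60002. Neuron markers (8 of 9 listed were measured) were present on every array too, with a summed signal between 46444 and 274894. Choroid plexus markers varied most, between 19007 and 326942, and were richest on intact replicate 2 and sham 3 d replicate 3. In a pooled artery a lower share of one cell type and less RNA per cell cannot be told apart.

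None of the 34 members passed an adjusted p of 0.05 (limma, Benjamini-Hochberg over 15737 probe sets) in any of the 8 comparisons between groups, in the F test over the 5 groups or in the test of whether the 3VO difference itself differed between 3 d and 24 h. In the F test 12.1% of all probe sets had an unadjusted p under 0.05 and 0.0763% an adjusted one. The members' smallest adjusted p was 0.135, for Hsph1 in sham 24 h against intact arteries. Few probe sets passed anywhere: 8 of 15737 (0.0508%) for 3VO against sham at 24 h, 0 at 3 d, where 4.73% had an unadjusted p under 0.05, and at most 35 (0.222%) for 3VO at 3 d against intact. The values below therefore describe these arrays. A pair of groups is called separate where the 3 arrays of one all lie above the 3 arrays of the other.

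At 24 h after surgery the endoplasmic reticulum members were mostly higher in 3VO than in sham arteries, by small amounts. Of the 17, 15 had a higher mean, against 47.3% of all probe sets, with a median log2 difference of 0.23, against a median of −0.02 over all probe sets. In 8 of the 17 every 3VO array lay above every sham array, and in 0 below. With each array centred on its median, an alternative chosen after seeing the data, the count above was 5, against 5.38% of all probe sets. Over all probe sets 6.42% were separate in that direction and 9% in the opposite one. An unadjusted p under 0.05 was reached by 5 of the 17, against 6.97% of all probe sets, and an adjusted p under 0.05 by none. Of these 8 genes Hspa5, P4hb and Manf belong to those named by rule, and Hsp90b1, Calr, Sdf2l1, Hyou1 and Pdia6 were singled out after their values were seen.

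Hspa5, the main chaperone of the organelle and the usual gauge of the unfolded protein response, gave signals of 24334, 21162 and 22881 on the sham 24 h arrays and 26309, 34173 and 27167 on the 3VO 24 h arrays. The groups did not overlap, and replicate 2 of the 3VO group was the highest of all 15 arrays. The log2 difference was 0.35 (SE 0.15, 95% interval 0.04 to 0.66, unadjusted p = 0.0294, adjusted p = 0.66), or 1.27-fold. The intact arrays, at 22124, 24244 and 27437, overlapped both groups, and the highest of them exceeded 2 of the 3VO arrays.

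Hsp90b1, the HSP90 of the endoplasmic reticulum, read 36339.8, 28660.2 and 28561 on the sham and 43684, 38664 and 39614 on the 3VO arrays at 24 h, a log2 difference of 0.39 (SE 0.14, adjusted p = 0.571). Calr, a calcium-binding lectin chaperone, read 29786, 24350.0 and 26188 on the sham and 35388, 39448 and 32535 on the 3VO arrays, a log2 difference of 0.42 (SE 0.16, adjusted p = 0.609). For both genes all 3VO arrays were above all sham arrays, and also above all intact arrays, whose highest values were 36874 for Hsp90b1 and 31382 for Calr.

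Sdf2l1, a cofactor of the Hspa5 cycle, read 6862, 6605 and 5532 on the sham and 8358, 11143 and 8413 on the 3VO arrays, a log2 difference of 0.55 (SE 0.19, adjusted p = 0.569). Manf, a secreted factor of the endoplasmic reticulum stress response, read 9347, 7516 and 6994 on the sham and 10013, 11095 and 10091 on the 3VO arrays, a difference of 0.40 (SE 0.16, adjusted p = 0.66). The groups did not overlap for either gene. Of the arrays outside the 3VO 24 h group only sham 3 d replicate 1, at 10267, reached its range for Manf.

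Hyou1, a large HSP70 relative and nucleotide exchange factor of Hspa5, had the widest gap of the class. It read 3642, 2188 and 3946 on the sham and 5404, 5012 and 5199.9 on the 3VO arrays, a log2 difference of 0.72 (SE 0.36, 95% interval −0.056 to 1.49, adjusted p = 0.75), and its other probe set gave 0.75. The sham arrays carried this gap: intact arrays read 5204, 8872 and 5887, so the 3VO 24 h mean lay below the intact mean, and only sham 3 d replicate 1 read as low as the sham 24 h arrays. Without sham 24 h replicate 2 the difference was 0.45 on the log2 scale.

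The disulfide isomerase Pdia6 and P4hb, which is also a subunit of the enzyme that hydroxylates collagen, were the remaining separate members. Pdia6 differed by 0.23 (SE 0.12) and P4hb by 0.14 (SE 0.11), with adjusted p of 0.774 and 0.863. The other 9 endoplasmic reticulum members overlapped between 3VO and sham at 24 h. They ran from −0.054 for Herpud1, which tethers the degradation complex and read 10548, 9037 and 9744 on sham and 11179, 6926 and 10719 on 3VO arrays, to 0.32 for Creld2. Canx, the membrane-bound partner of Calr, differed by 0.0055 (SE 0.11) on its brightest probe set and by 0.25 and 0.32 on the others.

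The stress response element was found among both the separate and the overlapping genes. Among the 8 separate genes 6 had a promoter entry and 3 of these held the element (Hspa5, Hsp90b1 and Calr). Among the 9 that overlapped 8 had an entry and 3 held it, Creld2 and Dnajc3 among them.

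**Figure D1:**
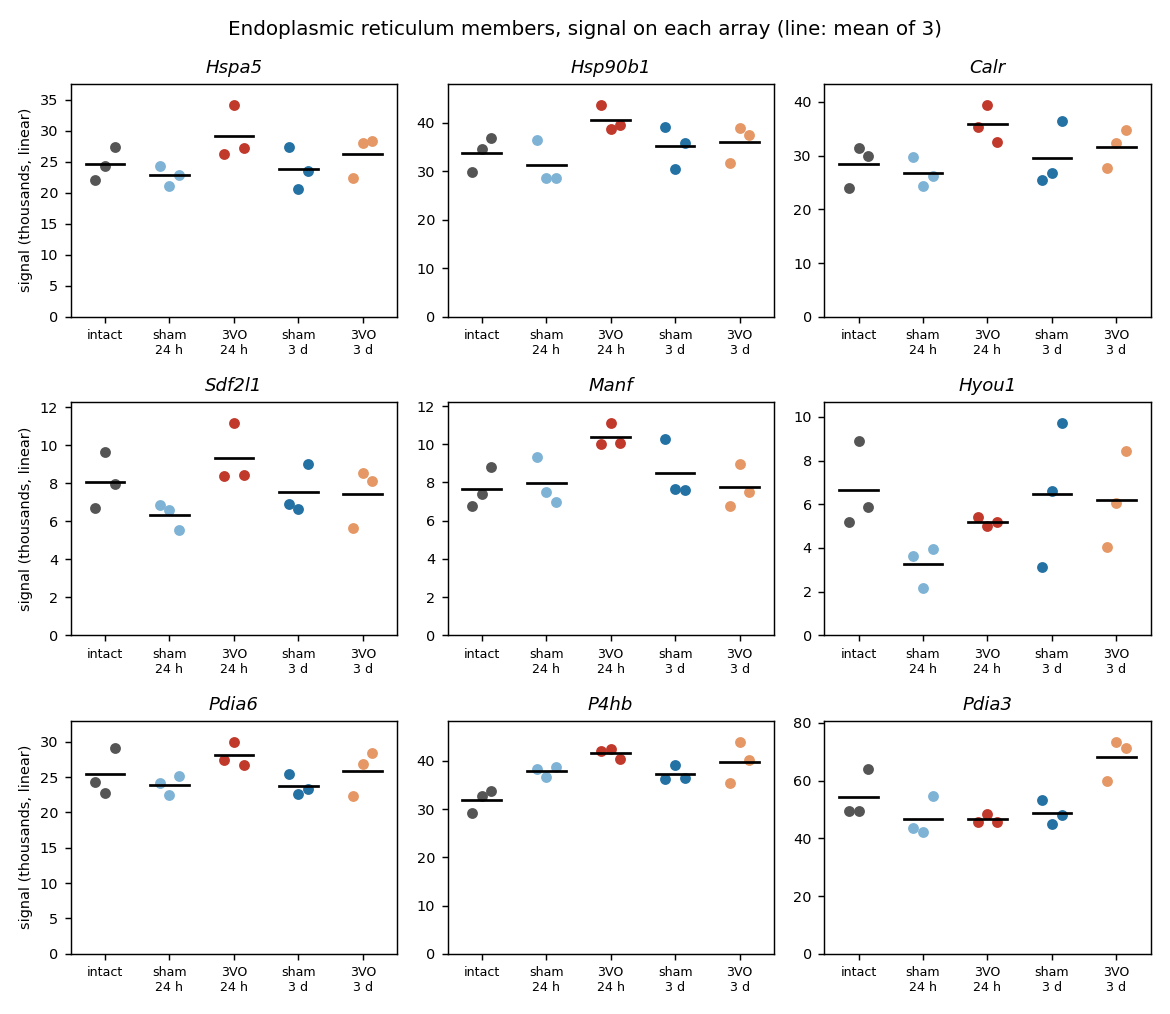
Linear signal of 9 endoplasmic reticulum members on each of the 15 arrays, by group, with a line at the mean of 3. In all panels but that of Pdia3 the 3VO 24 h points lie above the sham 24 h points, and Pdia3 is highest in 2 of the 3VO 3 d arrays.

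The regulators of the unfolded protein response did not separate 3VO from sham at 24 h. Xbp1, which is activated by splicing that a single signal for the gene does not show, read 26859, 23625 and 28344 on sham and 29165, 27367 and 24138 on 3VO arrays, a difference of 0.033 (95% interval −0.30 to 0.37). Ddit3, the transcription factor tied to cell death under lasting stress, read 6375, 5207 and 4819 on sham and 5124, 7154 and 5021 on 3VO arrays, a difference of 0.067 (95% interval −0.34 to 0.48). For both the groups overlapped, and the intervals include differences as large as those of Hspa5.

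Atf4, the effector of the branch that slows translation, read 23822, 20362 and 17641 on the sham and 24225, 23206 and 22764 on the 3VO arrays, a difference of 0.19 (SE 0.12), with 1 sham array inside the 3VO range. Trib3, a pseudokinase induced by Atf4, was dim and variable, from 434 to 1884 over the 15 arrays. It differed by −0.55 at 24 h (SE 0.39), while its other probe sets gave 0.43 and −0.28, so its probe sets disagreed in direction.

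The cytosolic and mitochondrial members were nearly evenly split between 3VO and sham at 24 h. Of the 13, 6 were higher and 7 lower in the means, with a median of −0.01, against 47.3% of all probe sets higher. None reached an unadjusted p of 0.05, against 6.97% of all probe sets. In 2 of them every 3VO array lay above every sham array (Dnaja1, an HSP40 cochaperone, 0.22, and Hsp90ab1, the constitutive cytosolic HSP90, 0.18). In another 2 every 3VO array lay below (Hspa1a and Hspa4). Over all probe sets 6.42% were separate upwards and 9% downwards.

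Hspa4, a nucleotide exchange factor of the HSP70 cycle, read 7200.4, 7861 and 8628 on the sham and 6799.6, 6318 and 5982 on the 3VO arrays at 24 h, a log2 difference of −0.31 (SE 0.17, adjusted p = 0.777). Hspa1a, the stress-inducible HSP70, read 6109.6, 5859.8 and 5179 on the sham and 4465, 4481 and 4700.0 on the 3VO arrays, a difference of −0.33 (SE 0.23, adjusted p = 0.83). The probe set shared by Hspa1a and its near-identical copy Hspa1b gave 0.40 for the same comparison, the opposite direction, so the direction for inducible HSP70 is uncertain.

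The mitochondrial chaperonin pair differed little between groups in the means. Hspd1 (HSP60) read 36469, 33454 and 34676 on sham and 34132, 33278 and 35527 on 3VO arrays at 24 h and ran from 32184 to 38896 over all 15, the narrowest spread of any member. Its partner Hspe1 (HSP10) read 24044, 22259.5 and 20202 on sham and 22740.3, 22885 and 25534 on 3VO arrays. The 95% intervals of the 24 h difference were −0.23 to 0.19 for Hspd1 and −0.20 to 0.40 for Hspe1. Dnajb1, the stress-inducible HSP40, read 6261, 6439 and 4329 on sham and 4233, 6436 and 6246 on 3VO arrays, with a difference of −0.012 (95% interval −0.57 to 0.54).

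**Figure D2:**
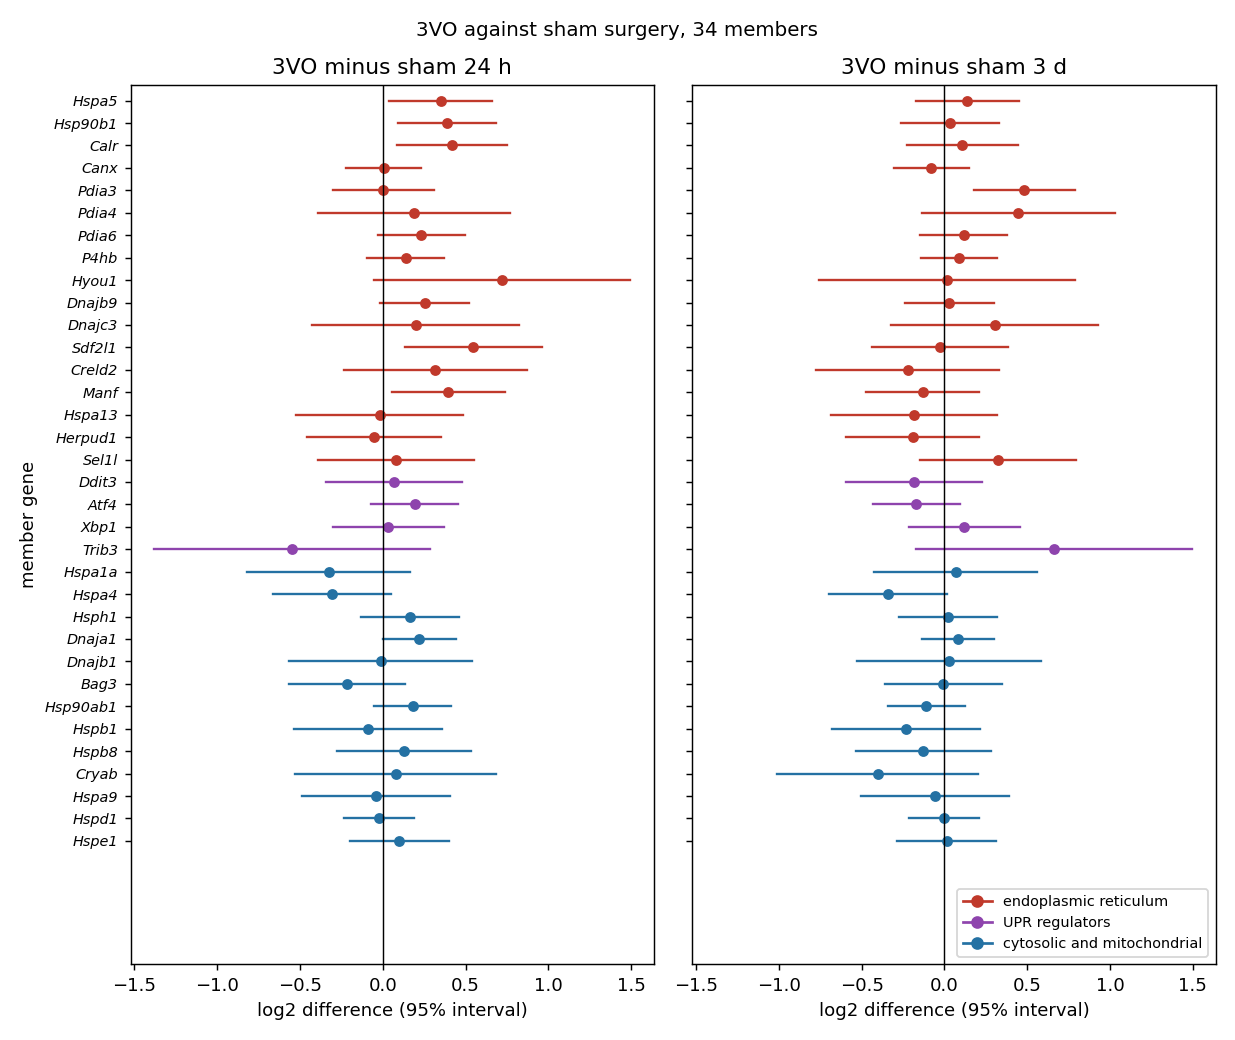
Log2 difference of 3VO minus sham with its 95% interval for the 34 members, at 24 h (left) and 3 d (right), coloured by class. At 24 h 15 of the 17 endoplasmic reticulum points lie right of 0, and at 3 d 11 of 17 do.

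To compare the classes on each array, every gene's log2 signal was centred on its mean over the 15 arrays and averaged over its class. The endoplasmic reticulum mean was 0.12 ± 0.06 (SD, n = 3) in 3VO 24 h and −0.13 ± 0.16 in sham 24 h. The cytosolic and mitochondrial mean was −0.024 ± 0.064 and −0.013 ± 0.12 in the same groups. The endoplasmic reticulum mean minus the cytosolic and mitochondrial one was 0.19, 0.19 and 0.047 on the 3VO 24 h arrays and −0.092, −0.30 and 0.051 on the sham 24 h arrays. The groups overlapped by 1 array each: sham replicate 3 lay just above 3VO replicate 3. The difference of these means was 0.26 on the log2 scale, with an SD between arrays of 0.14. At 3 d it was 0.16 (SD 0.078), from −0.020, 0.16 and 0.13 on 3VO and −0.077, −0.0062 and −0.12 on sham arrays, which overlapped. Against intact arteries (−0.021, 0.010 and −0.14) it was 0.19 (SD 0.082) in 3VO 24 h and 0.14 (SD 0.088) in 3VO 3 d. In sham 24 h it was −0.062 (SD 0.14) and in sham 3 d −0.016 (SD 0.070). Counted gene by gene, 12, 11 and 13 of the 17 endoplasmic reticulum members were above their own 15-array median on the 3VO 24 h arrays, and 8, 0 and 5 on the sham 24 h arrays. The array with 0, sham 24 h replicate 2, was the lowest of the 15 for the class.

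**Figure D3:**
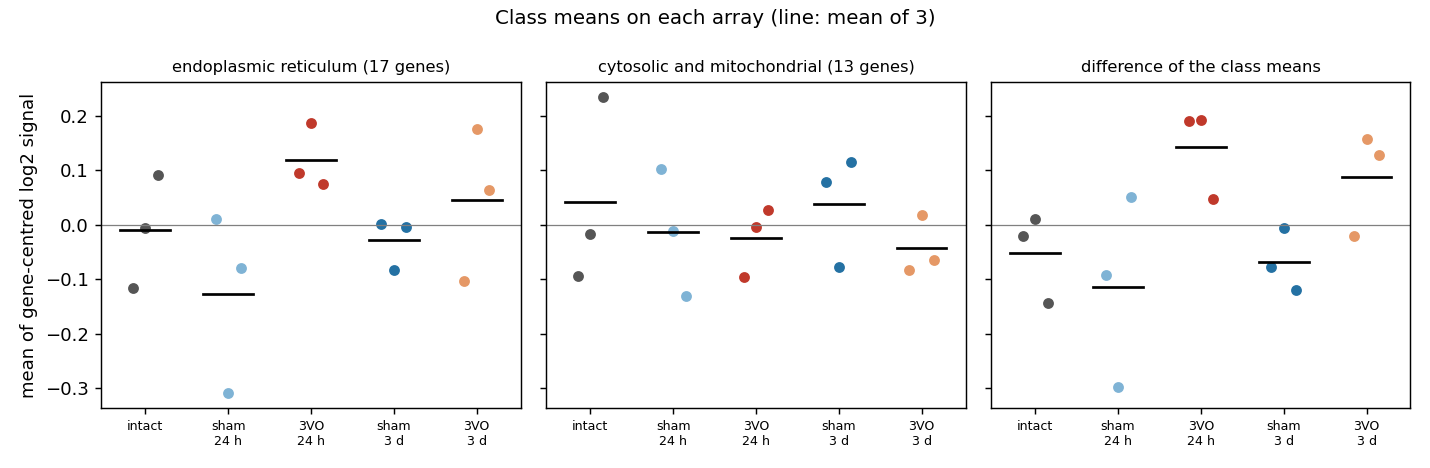
Mean of gene-centred log2 signal over the 17 endoplasmic reticulum members (left), the 13 cytosolic and mitochondrial members (middle) and their difference (right), 1 point per array and a line at the mean of 3. In the left panel the 3 arrays of 3VO 24 h lie above the 3 of sham 24 h, and in the right panel these groups overlap.

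Markers of other cell types differed in the means of this comparison, and their part in it was not tested. All 8 measured neuron markers had a higher mean in 3VO than in sham at 24 h (median log2 difference 0.92, summed signal 73776 to 156002 against 46444 to 86572). All 6 astrocyte markers were higher too (median 0.48), 6 of 7 macrophage markers were higher (median 0.20), and all 6 smooth muscle markers were lower (median −0.63). Endothelial markers were lower in 5 of 5 (median −0.25) and fibroblast and leptomeninges markers in 5 of 6 (median −0.27). Choroid plexus markers were lower in 4 of 5 (median −0.35) and oligodendrocyte markers higher in 4 of 4 (median 0.32). The mean of the neuron markers was also used as a covariate, a choice made after seeing the data. The 24 h difference was then 0.52 for Hspa5, 0.55 for Calr and 0.59 for Manf, each larger than without the covariate. These genes are a selection, and none of the members passed the test. The covariate itself differed between these groups, so in this fit its part and that of 3VO cannot be told apart.

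At 3 d the counts of endoplasmic reticulum members lay closer to an even split between 3VO and sham. Of the 17 endoplasmic reticulum members 11 were higher in 3VO than in sham, against 48.5% of all probe sets (median 0.04, against −0.01), and 3 had every 3VO array above every sham array, against 4.34% of all probe sets. These were Pdia3, Pdia4 (0.45, SE 0.27) and Sel1l, none of which was separate at 24 h. No endoplasmic reticulum member had every 3VO array below, against 4.75% of all probe sets. Of the cytosolic and mitochondrial members 5 of 13 were higher and none was separate in either direction. In the same comparison 7 of 7 macrophage markers were higher in the means (median 0.72, summed signal 92484 to 103715 in 3VO and 64254 to 65876 in sham) and 5 of 5 endothelial markers were lower (median −0.41). The 5 of 5 erythroid markers were lower as well (median −0.71, 183434 to 280355 and 329679 to 411608). Their part in the members' values was not tested.

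Pdia3 (ERp57), the disulfide isomerase that works with Calr and Canx, read 53185, 44983 and 48272 on the sham 3 d and 59986, 73472 and 71345 on the 3VO 3 d arrays. The log2 difference was 0.48 (SE 0.14, unadjusted p = 0.00428, adjusted p = 0.763). Apart from 1 intact array at 63937, every array outside the 3VO 3 d group read below the lowest of its arrays. A second, separate probe set of Pdia3 gave −0.11, so this difference rests on 1 probe set. Sel1l, the scaffold of the ubiquitin ligase that clears misfolded proteins, read 3007, 2876 and 2008 on sham and 3471, 3232 and 3040.4 on 3VO arrays at 3 d, a difference of 0.32 (SE 0.22, adjusted p = 0.999).

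The genes set apart at 24 h overlapped at 3 d, as Hspa5 and Manf show. Hspa5 read 27403, 20664 and 23504 on the sham 3 d arrays and 22385, 28041 and 28263 on the 3VO 3 d arrays. Manf read 10267, 7677 and 7586 on sham and 6793, 8947 and 7476 on 3VO arrays. The differences were 0.14 and −0.13. Without the sham array whose treatment text is in doubt, which was the highest of its group for both genes, Manf differed by 0.011 and Hspa5 by 0.24. Without the same array Pdia3 differed by 0.55, Pdia4 by 0.49 and Sel1l by 0.43.

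A test of whether the 3VO difference changed between 24 h and 3 d was passed by no member and by 0 of all probe sets, of which 2.78% had an unadjusted p under 0.05. Manf (−0.53, adjusted p = 0.999), Pdia3 (0.48, adjusted p = 0.999) and Trib3 (1.21, adjusted p = 0.999) had the smallest unadjusted p of the members, in opposite directions. Within the 3VO groups alone, Manf was lower at 3 d than at 24 h on every array (−0.43), as were Atf4 (−0.28) and Hsp90ab1 (−0.24), and Pdia3 (0.55), Trib3 (1.01) and Hspa1a (0.57) were higher. None of these passed the test. Over all probe sets 9.34% were separate upwards and 4.68% downwards, and 5.76% had an unadjusted p under 0.05.

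Between the sham groups no member was separate in time, against 6.73% of all probe sets upwards and 4.55% downwards. In the means 12 of 17 endoplasmic reticulum members and 10 of 13 cytosolic and mitochondrial ones were higher in sham 3 d than in sham 24 h, against 54.6% of all probe sets. Hyou1 alone (0.89, SE 0.36) had an unadjusted p under 0.05, against 5.65%, and its adjusted p was 0.87. It read 3138, 6586 and 9704 on the sham 3 d arrays, the first of them within the range of the sham 24 h arrays. The highest was on sham 3 d replicate 3, an array rich in choroid plexus markers, whose part was not tested.

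Against intact arteries 3 members were separate in all 4 operated groups, Hsph1 and Hspa9 downwards and P4hb upwards. The share of all probe sets separate in the same direction in all 4 was not counted, so this number has no background beside it. The 4 comparisons share the same 3 intact arrays, so they are not independent of each other, and no member passed any of them. The intact arrays were numbers 13, 14 and 15 in the titles and all operated arrays had lower numbers. Array number and operation thus cannot be told apart in these comparisons. With array number as a covariate, chosen after seeing the data, no member passed. The members' smallest adjusted p was then 0.33 in sham 24 h and 0.62 in 3VO 24 h (0.135 and 0.21 without the covariate). In sham 3 d it was 0.50 and in 3VO 3 d 0.35 (0.17 and 0.18 without the covariate). Between 9.96% and 15% of all probe sets had an unadjusted p under 0.05 in these comparisons, and the adjusted threshold was passed by none in either sham group, by 0.184% in 3VO 24 h and by 0.222% in 3VO 3 d. The share of all probe sets with every operated array below the intact ones was 7.41% in sham 24 h, 6.19% in 3VO 24 h, 5.34% in sham 3 d and 5.11% in 3VO 3 d, and the share with every operated array above was 9.96%, 7.59%, 9.86% and 10.3% in that order. Neuron markers were lower than in intact arteries in all 4 operated groups (8 of 8 each, medians −1.16, −0.38, −1.06 and −0.85 for sham 24 h, 3VO 24 h, sham 3 d and 3VO 3 d).

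Hsph1 (HSP105), an exchange factor of cytosolic HSP70 whose promoter element is shown above, read 15228, 17735 and 14881 on the intact arrays. It read 10197, 11469 and 9329 on sham 24 h, 10516, 10999 and 13313 on 3VO 24 h, 12097, 9731 and 11891 on sham 3 d and 10723, 10554 and 12906 on 3VO 3 d arrays. All 12 arrays from operated animals lay below all 3 intact arrays. The log2 differences were −0.63, −0.46, −0.51 and −0.49 in that order, with adjusted p between 0.135 and 0.265. With the neuron markers as a covariate the sham 24 h difference was −0.45. The smallest adjusted p of any member for sham 24 h against intact was then 0.95. Neuron markers differed between these groups, so in this fit their part and that of surgery cannot be told apart.

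Hspa9 (mortalin), the HSP70 of the mitochondrial matrix, read 14364, 13685 and 14918 on the intact arrays. It read 10936, 7628 and 8082 on sham 24 h, 7344, 9090.1 and 9319 on 3VO 24 h, 7956, 8224 and 13683 on sham 3 d and 7656, 8998 and 11538 on 3VO 3 d arrays. Again all 12 operated arrays lay below the intact ones, though sham 3 d replicate 3 lay just under the lowest of them. The differences ran from −0.74 to −0.57. The other probe sets of Hspa9 did not agree among themselves: one gave −0.15 and the other 0.00 for sham 24 h against intact, so the size and direction for this gene depend on the probe set.

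Hspa4 read 9667, 9761 and 9441 on the intact arrays, 7730.3, 6883 and 11697 on sham 3 d and 6089.8, 6654 and 7528 on 3VO 3 d arrays. It lay below intact on every array of sham 24 h (−0.29), 3VO 24 h (−0.60) and 3VO 3 d (−0.51), and overlapped in sham 3 d (−0.17), where replicate 3 was the highest of all 15 arrays. Hspa1a had higher means than intact (4169): 5716 in sham 24 h, 4549 in 3VO 24 h, 6577 in sham 3 d and 6948 in 3VO 3 d. It was separate upwards in sham 24 h alone, against 9.96% of all probe sets. There the probe set shared with Hspa1b had a mean of 2285, against 2353 in intact.

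Hspb1 (HSP27), a small heat shock protein abundant in smooth muscle, read 10789.9, 11718 and 18897 on the intact, 26665, 20027 and 19599 on the sham 24 h and 17632, 23866 and 20646 on the 3VO 24 h arrays. At 3 d it read 20544, 20489 and 17162 on sham and 18303, 18797 and 12954 on 3VO arrays. The means of all operated groups were above the intact mean, by 0.71, 0.62, 0.53 and 0.30, and the sham 24 h group alone was separate from it. Intact replicate 3 stood well above its group. Without that array Hspb1 passed the test in sham 24 h (0.96, adjusted p = 0.0201) and 3VO 24 h (0.87, adjusted p = 0.0393) against intact, as did Hsph1 in sham 24 h (−0.67, adjusted p = 0.0299). The calls over all probe sets moved with them: without that array 818 of 15727 passed in sham 24 h and 227 in 3VO 24 h, against 0 and 29 of 15737 with it. With the neuron markers as a covariate the sham 24 h difference of Hspb1 was 0.22. Those markers were lower in sham 24 h than in intact arteries (8 of 8). In this fit their part and that of surgery thus cannot be told apart. Smooth muscle markers were higher than intact in both sham groups (6 of 6 each, medians 0.41 at 24 h and 0.16 at 3 d). In both 3VO groups they were lower (6 of 6 each, medians −0.30 at 24 h and −0.18 at 3 d). Their part in the Hspb1 values was not tested.

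Of the other small heat shock proteins, Cryab (αB-crystallin) read 12378, 11601 and 19743 on intact arrays, so replicate 3 stood above its group here too. Cryab read 17116, 14694 and 12945 on sham 24 h and 17183.5, 12827 and 17357 on 3VO 24 h arrays, all above intact replicates 1 and 2. It ran from 9205 to 25336 over all 15, with sham 3 d replicate 1 the highest. Hspb8, which works with Bag3 in the removal of damaged filaments in muscle, read 3624, 5037 and 5683 on intact arrays and ran from 3575 to 5683 over all 15. Neither was separate from intact in any operated group.

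**Figure D4:**
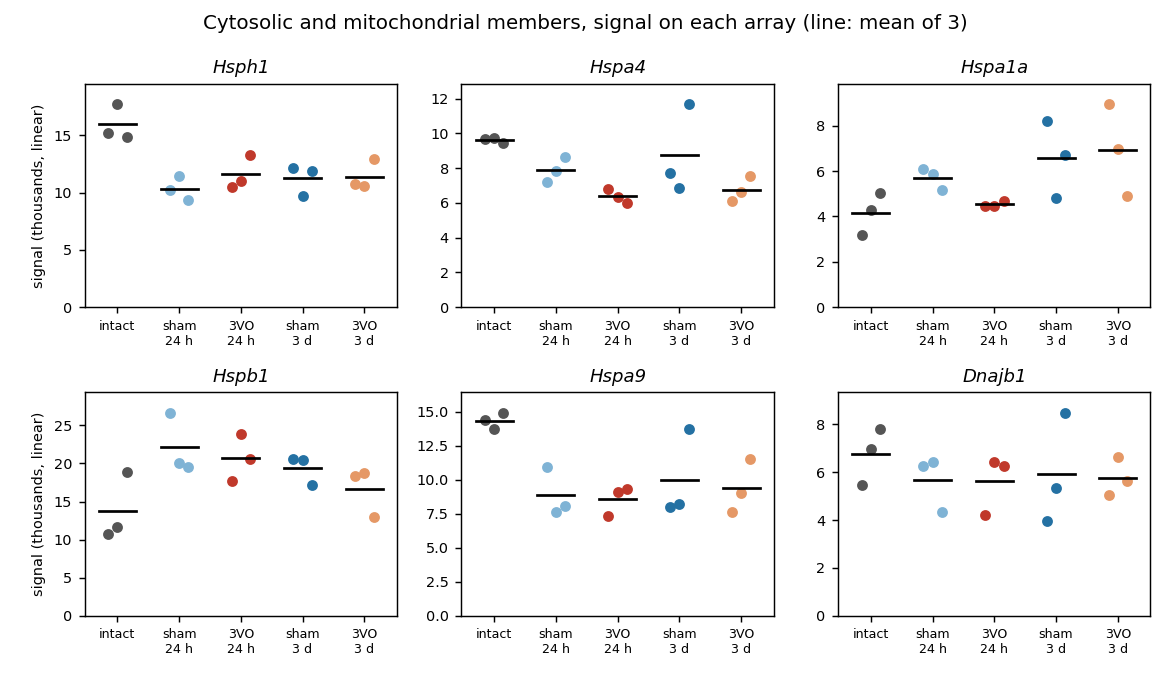
Linear signal of 6 cytosolic and mitochondrial members on each of the 15 arrays, by group, with a line at the mean of 3. All operated arrays lie below the 3 intact arrays for Hsph1 and Hspa9, while the groups of Dnajb1 overlap.

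Among the endoplasmic reticulum members P4hb alone was higher than intact on every operated array. It read 29155, 32789 and 33732 on the intact, 38286, 36702 and 38644 on the sham 24 h, 42115, 42516 and 40355 on the 3VO 24 h, 36284, 39172 and 36512 on the sham 3 d and 35463, 43955 and 40086 on the 3VO 3 d arrays. The differences were 0.25, 0.39, 0.23 and 0.32 in that order, with the smallest adjusted p at 0.21 for 3VO 24 h. Markers of other cell types lay higher than intact in the same groups. Fibroblast and leptomeninges markers were higher in 6 of 6 in both sham groups and in 5 of 6 in both 3VO groups (medians 0.57 in sham 24 h, 0.65 in sham 3 d, 0.32 in 3VO 24 h and 0.69 in 3VO 3 d, summed signal 188881 to 286604 in intact and 326588 to 365441 in sham 24 h). Endothelial markers were higher in 5 of 5 in both sham groups, 4 of 5 in 3VO 24 h and 3 of 5 in 3VO 3 d (summed signal 24157 to 42203 in intact, 50926 to 60002 in sham 24 h, 48027 to 54804 in sham 3 d, 39566 to 51546 in 3VO 24 h and 29497 to 59685 in 3VO 3 d). Their part in the P4hb values was not tested. At 24 h 12 of the 17 members of the class had a higher mean than intact in 3VO and 4 of 17 in sham. The medians were 0.18 and −0.11, and 50.6% and 54.2% of all probe sets were higher. In class means per array both groups overlapped intact. The endoplasmic reticulum mean was −0.12, −0.0057 and 0.092 on intact, 0.010, −0.31 and −0.080 on sham and 0.095, 0.19 and 0.074 on 3VO arrays. At 3 d the counts were 11 of 17 in 3VO and 9 of 17 in sham, against 57% and 58.8%. Manf (0.45), Calr (0.34), Hsp90b1 (0.27), Dnajb9 (0.24) and P4hb were separate upwards in 3VO 24 h against intact, against 7.59% of all probe sets. On their brightest probe sets Canx (−0.13) and Pdia3 (−0.21) were separate downwards, against 6.19%. With the mean over its probe sets Canx was higher than intact instead. In the same comparison the macrophage genes C1qb (1.38, adjusted p = 0.0176) and C1qc (1.24, adjusted p = 0.0475), which encode chains of complement C1q, rose, and 7 of 7 macrophage markers had a higher mean. Their part in the members' values was not tested. Part of the 24 h gap between 3VO and sham thus lay in sham means below the intact mean, as for Hyou1 (−1.03 in sham, −0.32 in 3VO) and Sdf2l1 (−0.34 and 0.21).

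Of the regulators, Atf4 read 27013, 23083 and 24501 on intact and 17652, 21239.5 and 19065 on 3VO 3 d arrays, which were separate (−0.36, adjusted p = 0.237). Trib3 read 904, 639 and 732 on intact and 1884, 1671 and 1264 on 3VO 3 d arrays and was separate in the other direction (1.06, adjusted p = 0.28). Its other probe sets gave 0.03 and 0.13 for that comparison.

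**Figure D5:**
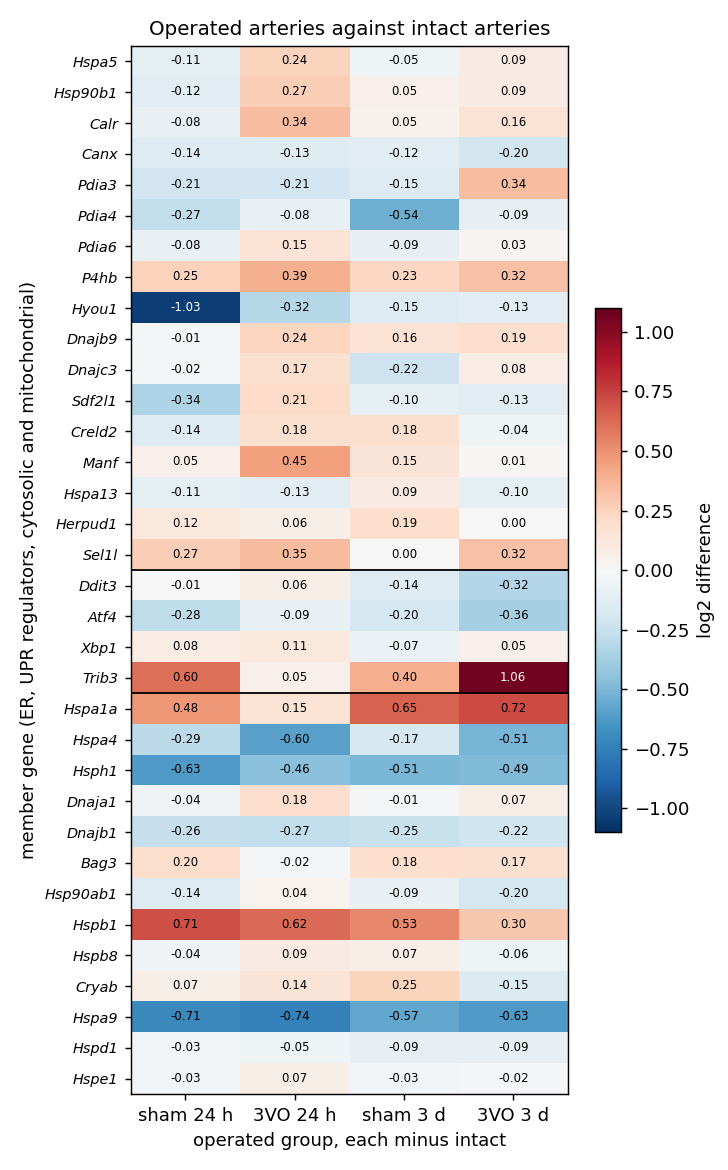
Log2 difference of each operated group minus the intact group for the 34 members, in class order, with the value in each cell and colour from −1.1 (blue) to 1.1 (red). Hsph1 and Hspa9 are blue and P4hb and Hspb1 red in all 4 columns, and 12 of the 17 endoplasmic reticulum members are above 0 in the 3VO 24 h column.

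Most members varied little over the series: for 23 of 34 the highest of the 15 arrays was less than 2 times the lowest. Hyou1 (4.44 times), Trib3 (4.34 times) and Hspa1a (2.82 times) varied most. The probe set shared by Hspa8, the constitutive HSP70, with another locus read between 104034 and 132761 over the 15 arrays and differed by 0.14 between 3VO and sham at 24 h. The sets shared by Hsp90aa1, the inducible HSP90, with a pseudogene gave 0.14 and 0.07.

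The wider pathway, a list of 123 further genes of the unfolded protein response, folding, degradation and the heat shock response, had 107 measured genes. None passed the test in any comparison. In 3VO against sham at 24 h 60 were higher and 47 lower, with a median of 0.02, against 47.3% of all probe sets higher. Within it, 16 of 30 further genes of endoplasmic reticulum folding and translocation were higher at 24 h (median 0.0071), as were 8 of 13 genes of degradation (0.035) and 9 of 20 sensors and regulators (−0.044). Of the cytosolic genes 23 of 37 were higher (median 0.037), and of the mitochondrial ones 4 of 7 (0.13). At 3 d 59 were higher and 48 lower, with a median of 0.03, against 48.5% of all probe sets higher. An unadjusted p under 0.05 was reached by 5 of the 107 at 24 h and 4 at 3 d. Over all probe sets the shares were 6.97% and 4.73%.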

How the data were processed

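RNA of 8 pooled rats per array was hybridised to 15 Affymetrix Rat230A arrays. The authors processed the scans in GCOS (version not given in the sources used here) and deposited 1 linear intensity per probe set, per the submitters' processing notes and the series' design text. That text states a target of 500, whereas the mean of the deposited values, trimmed at both ends, was 5000 on every array. No scanner file was used, so the background correction could not be varied, and the number of arrays limits the precision.

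Values were taken as log2(signal + 16). Probe sets with a signal of at least 100 on at least 3 arrays (15737) were fitted with limma 3.58.1 (R 4.3.3) with 5 group means, empirical Bayes with a variance trend (10 residual degrees of freedom) and 2-sided tests, adjusted by Benjamini-Hochberg over all probe sets within each comparison. The script was tested on simulated data with known changes in 3VO against sham at 24 h. It called 5.6% of changes of 0.5 on the log2 scale, 38.4% of changes of 1 and 71.6% of changes of 2. Changes as small as those of most members would thus mostly be missed. Gene names came from the platform annotation: 12783 probe sets had 1 gene, 312 several and 2771 none, and 57 control sets were left out. Symbols were updated through Entrez identifiers for 12748 probe sets and through accessions for 2.

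The members and lists were chosen with earlier results of these data known. Members described by their values on the arrays were Hspa5, Ddit3, Xbp1 and Dnajb1 and, in each class, the 3 with the smallest F test p. Others were singled out after their values were seen. Alternatives covered the pseudocount, the filter, the scaling, the probe set rule, the variance model and leaving out each array. The replicate numbers do not pair arrays across groups. One promoter match is not reported here.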

Additional observations from a re-analysis of the deposited data

How the results depend on the processing

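Of the counts of members past the test, 276 values under alternatives were as reported and 2 differed. Both came without intact replicate 3. Leaving out each array in turn gave 0 to 2 members for sham 24 h against intact and 0 to 1 for 3VO 24 h against intact. Without intact replicate 3 the calls over all 15727 probe sets were 818 and 227 in these comparisons, against 0 and 29 with it. The 8 endoplasmic reticulum members separate at 24 h became 5 when each array was centred on its median (5.38% of all probe sets were then separate upwards). On leaving out single arrays the count ran from 8 to 10. The share of all probe sets then ran from 6.42% to 13.2%, and was 11.3% and 13.2% where the count was 10. The class difference moved by less than 1 SD in 167 values. The exception was sham 3 d against intact, which was 0.082 with the median over the class (−0.016 with the mean). Of the log2 differences of named members, 1726 kept their direction and call, 3 gained a call and 7 changed sign, none of the last past the test. Xbp1 in sham 3 d against sham 24 h (−0.15) ran from −0.32 to 0.035 over single arrays left out and was 0.035 without the 2 arrays richest in choroid plexus markers. Hspb8 in 3VO 3 d against 3VO 24 h ran from −0.27 to 0.026, and Manf in 3VO against sham at 3 d from −0.24 to 0.011. Canx in 3VO 24 h against intact was 0.11 with the mean over its probe sets. With the array number of the titles as a covariate, Dnajb1 in 3VO 24 h against intact was 0.26 and Hspa4 in sham 3 d against intact 0.0055. The cause of these changes was not tested. The settings with choroid plexus, neuron markers or array number, and the count of separate members, were chosen after seeing the data. No paired analysis was possible because the labels do not tie a replicate number to shared animals or batches.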

Other observations

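Some genes outside the members were singled out after their values were seen. None of them passed the test (limma, Benjamini-Hochberg over all probe sets). Dnajb5, an HSP40 cochaperone, had a mean signal of 1263 ± 201 (SD, n = 3) in 3VO 3 d and 377 ± 224 in sham 3 d, a log2 difference of 1.84 (SE 0.46, adjusted p = 0.703), and the groups did not overlap. At 24 h the same gene differed by 0.44 (SE 0.46) and the groups overlapped. Hspb7, a small heat shock protein of muscle, had a mean signal of 2199 ± 81.7 in 3VO 24 h and 3721 ± 861 in sham 24 h, a difference of −0.73 (SE 0.26, adjusted p = 0.556), with every 3VO array below every sham array. Smooth muscle markers were lower in that comparison too, by a median of −0.63, and their part in it was not tested. Os9, a lectin that hands misfolded glycoproteins to the Sel1l complex, had a mean signal of 4608 ± 388 in 3VO 3 d and 3373 ± 168 in sham 3 d, a difference of 0.45 (SE 0.15, adjusted p = 0.953), without overlap, as did Sel1l itself. At 24 h Os9 differed by 0.0074 (SE 0.15).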
